A study of Mus musculus with 8 samples.

Results

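The replication-dependent histone genes are the multi-copy genes that supply the core and linker histones packaging newly copied DNA. They were taken as the protein-coding genes of the GENCODE M21 annotation (mouse genome build mm10) whose symbols begin with Hist1h, Hist2h, Hist3h or Hist4h, which gave 67 of 21938 protein-coding genes. By product they comprise 6 genes for the linker histone H1 and 18 for H2A, 18 for H2B, 12 for H3 and 13 for H4, the proteins of the nucleosome core. By location, 54 belong to the Hist1 cluster on chromosome 13, 10 to Hist2 on chromosome 3, 2 to Hist3 on chromosome 11 and 1, Hist4h4, stands alone on chromosome 6.

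Open chromatin was mapped by ATAC-seq, which uses the transposase Tn5 to tag accessible DNA. The cells were medullary thymic epithelial cells (mTECs) sorted from the thymus of mice of wild-type (wt) genotype. These cells display self-antigens to developing T cells. The 8 samples form 4 groups of 2 biological replicates, defined by surface tetraspanin Tspan8 and by MHC class II: Tspan8neg MHCIIlow, Tspan8neg MHCIIhigh, Tspan8pos MHCIIlow and Tspan8pos MHCIIhigh. The deposited values used here are the position and width of 57124 consensus regions, merged over the whole study, so that each region belongs to no sample or group. The genes are accordingly described by where regions lie, and no difference between the groups was analysed here.

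Replication-dependent histone genes are transcribed mainly in S phase, when the coactivator NPAT, acting downstream of cyclin E and CDK2, gathers at the clusters in histone locus bodies. Their transcripts lack introns and a poly(A) tail and end in a conserved stem-loop that binds SLBP. Many H2A and H2B genes lie head to head and share the DNA between them as a divergent promoter. Known promoter elements are the TATA box, the CCAAT box, the octamer bound by Oct-1 (Pou2f1) at H2B genes and the AAACACA box of H1 genes.

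The upstream sequences of a few genes show these elements beside the presence or absence of a region. They were read from the GRCm38 reference, the assembly behind mm10. Capitals mark the TATA box (TATAAA), the box named CCAAT after its letters, the octamer (ATTTGCAT) and the H1 box (AAACACA), each on either strand. The first pair of lines gives, on the plus strand, the DNA between the annotated starts of H2A–H2B pairs covered by 1 shared region. Hist1h2ac and Hist1h2bc (chr13:23683949-23684198) had a region of 509 bases, and Hist1h2ae and Hist1h2bg (chr13:23571221-23571395) one of 437 bases.
Hist1h2ac to Hist1h2bc: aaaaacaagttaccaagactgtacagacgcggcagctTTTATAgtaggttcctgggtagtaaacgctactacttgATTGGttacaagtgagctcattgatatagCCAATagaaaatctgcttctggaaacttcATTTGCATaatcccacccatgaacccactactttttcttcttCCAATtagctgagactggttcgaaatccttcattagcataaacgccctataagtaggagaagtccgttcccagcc
Hist1h2ae to Hist1h2bg: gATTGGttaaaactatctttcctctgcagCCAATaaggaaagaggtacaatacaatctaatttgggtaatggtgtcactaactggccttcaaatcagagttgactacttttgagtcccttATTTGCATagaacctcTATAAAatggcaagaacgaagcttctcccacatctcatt

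The next lines give the same stretch of H2B–H2A pairs without a region. Hist1h2ba and Hist1h2aa (chr13:23934159-23934458, the central 300 of 305 bases) encode the testis-specific forms TH2B and TH2A. Hist1h2bq and Hist1h2ao (chr13:21810198-21810464) lie in duplicated sequence. The testis pair held both a TATA box and an octamer, as the covered pairs did, whereas Hist1h2bq and Hist1h2ao held CCAAT boxes only.
Hist1h2ba to Hist1h2aa: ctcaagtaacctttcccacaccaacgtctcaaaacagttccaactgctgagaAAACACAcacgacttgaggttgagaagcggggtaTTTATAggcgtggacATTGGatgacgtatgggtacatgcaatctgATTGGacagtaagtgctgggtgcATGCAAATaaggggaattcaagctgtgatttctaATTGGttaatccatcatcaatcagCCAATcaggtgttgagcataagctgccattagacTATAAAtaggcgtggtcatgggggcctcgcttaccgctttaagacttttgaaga
Hist1h2bq to Hist1h2ao: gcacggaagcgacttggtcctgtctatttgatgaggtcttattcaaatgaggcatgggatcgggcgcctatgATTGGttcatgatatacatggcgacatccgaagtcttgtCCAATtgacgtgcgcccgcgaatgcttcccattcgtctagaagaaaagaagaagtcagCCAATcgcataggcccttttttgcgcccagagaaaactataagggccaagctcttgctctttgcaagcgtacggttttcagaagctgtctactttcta

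For linker histone genes, the 150 bases before the annotated start are printed in the direction of the gene. Hist1h1e (H1.4; chr13:23622559-23622708, minus strand) had a region over its start. Hist1h1b (H1.5; chr13:21780626-21780775, minus strand) and the testis-specific Hist1h1t (chr13:23695664-23695813, plus strand) had none there. Hist1h1e and Hist1h1b both held the H1 box, a CCAAT box and a TATA box, while Hist1h1t had the H1 box and the CCAAT box without an exact TATAAA.
Hist1h1e: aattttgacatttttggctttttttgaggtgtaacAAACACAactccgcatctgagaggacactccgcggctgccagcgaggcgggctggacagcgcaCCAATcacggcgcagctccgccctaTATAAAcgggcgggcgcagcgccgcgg
Hist1h1b: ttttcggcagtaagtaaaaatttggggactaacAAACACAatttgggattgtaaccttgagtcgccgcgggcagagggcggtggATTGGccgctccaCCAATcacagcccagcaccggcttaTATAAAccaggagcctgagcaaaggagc
Hist1h1t: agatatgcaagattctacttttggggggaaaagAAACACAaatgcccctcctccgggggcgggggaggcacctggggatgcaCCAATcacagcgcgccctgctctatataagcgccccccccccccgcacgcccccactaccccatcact

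H3 and H4 genes are shown in the same way. Hist1h3a (chr13:23762387-23762536, minus strand) had the narrowest region of the H3 genes, and Hist1h3e (chr13:23562370-23562519, minus strand) the widest. Hist1h4h (chr13:23530900-23531049, plus strand) had the widest region of any histone gene, and Hist4h4 (chr6:136804416-136804565, minus strand) is the isolated H4 gene. The H3 sequences each held 2 CCAAT boxes, Hist1h3a also held a TATA box, and the H4 sequences held no match to these motifs.
Hist1h3a: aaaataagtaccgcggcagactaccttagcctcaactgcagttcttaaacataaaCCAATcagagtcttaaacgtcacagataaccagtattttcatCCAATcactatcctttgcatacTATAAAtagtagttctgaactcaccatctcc
Hist1h3e: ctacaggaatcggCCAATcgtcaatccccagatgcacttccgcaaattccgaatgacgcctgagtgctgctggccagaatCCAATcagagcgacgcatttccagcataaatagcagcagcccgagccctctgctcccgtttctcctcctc
Hist1h4h: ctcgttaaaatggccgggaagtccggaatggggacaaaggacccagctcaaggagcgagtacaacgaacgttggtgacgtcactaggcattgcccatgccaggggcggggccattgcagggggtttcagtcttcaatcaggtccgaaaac
Hist4h4: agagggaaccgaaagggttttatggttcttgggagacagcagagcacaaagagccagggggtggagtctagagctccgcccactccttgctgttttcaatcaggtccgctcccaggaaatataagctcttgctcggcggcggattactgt

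Histone genes carried consensus regions at most of their starts. A region covered the annotated start of 51 of the 67 genes (76.1%), against 56.4% of all protein-coding genes and 25.6% of the 2386 protein-coding genes no longer than 3000 bases, to which most histone genes compare in size (median gene length 539 bases). The first base of the start codon was covered in 50 genes, against 31.8% of protein-coding genes with an annotated start codon. Within 1 kb of the gene body, 58 of the 67 (86.6%) were overlapped by a region, against 71.0% of all protein-coding genes and 35.2% of the short ones. Each of 54 regions was assigned to the histone gene with the nearest start, which gave 48 genes a region of their own. A further 10 genes were overlapped only by a region assigned to a neighbouring histone gene, and 9 had none.

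The share of covered annotated starts was counted by class. Coverage was highest among H4 genes, with 12 of 13 starts (92.3%). It followed with 15 of 18 for H2B (83.3%), 13 of 18 for H2A (72.2%) and 8 of 12 for H3 (66.7%), and was lowest for H1 with 3 of 6 (50%). The order of H2A, H2B and H3 rested on the annotated start: with any region in the 300 bases before the start codon counted, each stood at 83.3% (15 of 18, 15 of 18 and 10 of 12), H4 at 92.3% and H1 at 66.7%. In the Hist1 cluster 41 of 54 starts were covered (75.9%) and in Hist2 7 of 10 (70%). Both Hist3 genes and Hist4h4 were covered.

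Beyond the annotated start, the start codon served as a more uniform reference point. The median distance from annotated start to start codon was 33 bases, and 11 gene models began at the codon itself, but 3 models placed the codon more than 300 bases downstream. In Hist1h1d (H1.3) and Hist1h3f the codon lay 1828 and 433 bases past the annotated start, and it was covered by regions of 233 and 269 bases although the start was not. The longest model of Hist1h2be spans 37455 bases, and its codon, 35168 bases from the 5′ end, had a region of its own of 245 bases.

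**Figure D1:**
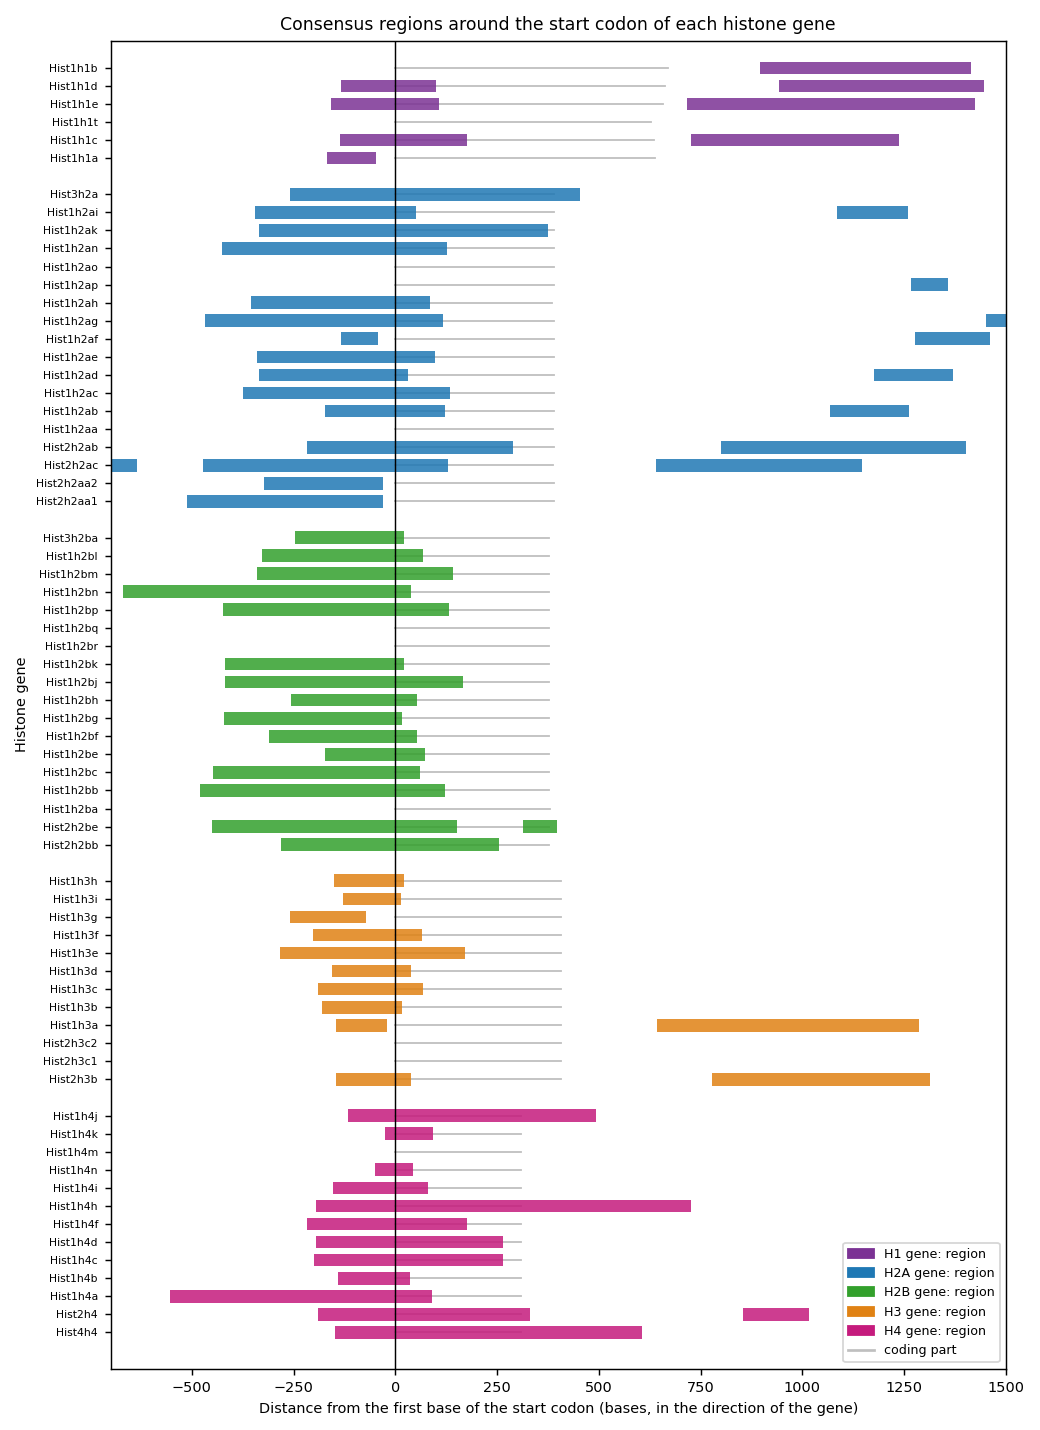
Consensus regions (bars, coloured by histone class) that overlapped each of the 67 histone genes, drawn against the distance from the first base of its start codon in bases, with the coding part as a grey line and the axis limited to the part near the codon. Most bars straddle the codon, 4 of the 6 H1 genes have a second or only bar past the coding part, and genes without a bar include Hist1h1t, Hist1h2aa and Hist1h2ba.

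Regions covering a single histone start reached a median of 184.5 bases upstream of the start codon and 99.5 bases past it (n = 32 regions, leaving out the distant 5′ end of Hist1h2be). The upstream reach was similar for H1, H3 and H4, with class medians of 159, 153.5 and 171 bases, and longer for H2A (239) and H2B (280). The reach into the gene varied more. H3 regions ended a median of 29 bases past the codon (range −22 to 169, n = 8), whereas H4 regions ended a median of 219 bases past it (35 to 725, n = 12), in a coding part of 309 bases. The H2A and H2B regions ended a median of 204 bases (n = 4) and 122 bases (n = 5) past the codon.

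The proportion of coding sequence that is unique in the genome was set beside this reach. Words of 31 bases occurring once on the chromosomes made up a median of 8.86% of the coding part of these H3 genes and 22.2% for these H4 genes. The class medians did not follow the reach throughout. H1 (71.1%, n = 3), H2A (44.6%, n = 4) and H2B (35.9%, n = 5) had higher percentages than H4 and ended nearer the codon, H1 at a median of 107 bases. These medians rest on few regions. H4 regions ended up to 725 bases past the codon, beyond the 309 coding bases in which uniqueness was measured. Across the 32 regions, the end position past the codon correlated with this percentage at Pearson r = 0.43 and Spearman rho = 0.57. With words of 100 bases in place of 31, the values were lower, at r = 0.36 and rho = 0.49. The regions share the sequence of related gene copies and are not independent. Reads mapping to several places had been discarded before peaks were called, and the part this plays in the ends of the regions was not tested.

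The 54 regions had a median width of 379 bases (95% interval 266 to 481 from order statistics, which covers the choice of regions only), ranging from 82 to 922. Regions over the starts of other protein-coding genes were wider, with a median of 585 bases (quartiles 415 and 791, n = 11789), and the median of all regions was 212 bases. The 54 regions include 12 that covered no histone start (median 239 bases). Among those that did, the median was 312 bases for the 33 over 1 start and 509 for the 9 over 2 starts. Regions of H3 genes were the narrowest class, with a median of 189 bases (125 to 454, n = 10). The medians were 312 bases for H1 (n = 7), 439 for H2A (n = 11), 508 for H2B (n = 12) and 426.5 for H4 (n = 14). Of the summed width of 20582 bases, 31.5% lay in histone coding sequence.

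**Figure D2:**
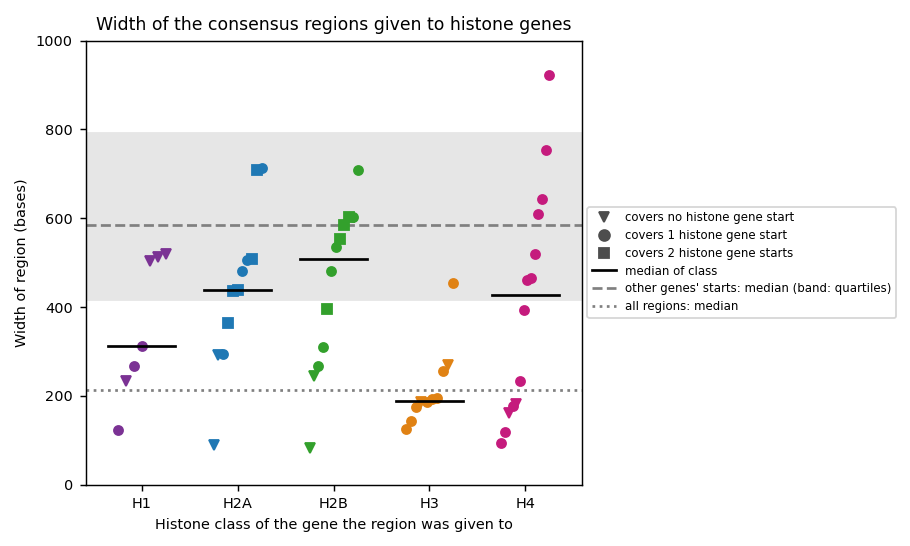
Width in bases of the 54 regions assigned to histone genes by class, with the shape of a point giving how many histone starts the region covers and a black bar the class median; the band and dashed line show the quartiles and median (585 bases) for the starts of other protein-coding genes. The H3 points lie below that band except Hist1h3e at 454 bases, and H4 spans from 93 to 922 bases.

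Among H4 genes, Hist1h4h had a region of 922 bases, from 196 bases before its codon to 725 past it, and Hist1h4n one of 93 bases. The isolated Hist4h4 had a region of 754 bases that ended 605 bases past the codon. Among H3 genes, widths ran from 125 bases at Hist1h3a, in a region of 36.8% GC ending 22 bases before the codon, to 454 bases at Hist1h3e.

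For H2A the widest region was that of Hist3h2a, at 714 bases. It also covered the start of the neighbouring pseudogene Hist3h2bb-ps. The narrowest, 89 bases, lay at Hist1h2af and ended 45 bases before the codon. The neighbour of Hist3h2a in the Hist3 cluster, the H2B gene Hist3h2ba, had a region of 266 bases. Hist2h2be had a region of 603 bases shared with Hist2h2ac and a second of 82 bases, the narrowest of all, that lay across the end of its coding part, from 314 to 395 bases past the codon. Among H1 genes, Hist1h1a had a region of 122 bases that covered the start and ended 48 bases before the codon.

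Shared regions were counted in head-to-head pairs. There were 13 pairs of neighbouring histone genes on opposite strands with starts within 1 kb, 12 of them H2A with H2B, which hold 24 of the 36 H2A and H2B genes. The start codons of these 12 pairs lay 278 to 334 bases apart (median 299). In 9 of the 13 pairs a single region covered both starts. Those 9 regions were 365 to 708 bases wide (median 509), against a median of 312 bases for the 33 regions over 1 histone start, and extended 15 to 373 bases (median 89.5) beyond the start codons. The starts of the 12 pairs lay 176 to 306 bases apart. A region over both starts is at least that wide by construction, so the 2 medians are not a like comparison. These distances are below the median width of regions over the starts of other protein-coding genes (585 bases). Sharing was not counted in head-to-head pairs of other genes, so it is not shown to be particular to histone genes.

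The widest shared region, 708 bases, belonged to Hist1h2ak and Hist1h2bn, and the narrowest, 365 bases, to Hist1h2bf and Hist1h2ad. The only pair of another kind, Hist1h2bh with Hist1h3f, had start codons 1132 bases apart and a separate region at each gene, of 311 and 269 bases. The remaining 3 pairs, Hist1h2bq–Hist1h2ao, Hist1h2ap–Hist1h2br and Hist1h2ba–Hist1h2aa, had no region at either start. The pseudogene Hist1h2aj shared a region of 481 bases with Hist1h2bm in the same head-to-head manner.

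The 9 genes without any region fell into separate kinds by sequence. Near-identical copies are a known feature of these clusters, so uniqueness was measured as the percentage of 100-base words, within the 300 bases before the start codon, that occur once on the chromosomes. It was 0% for Hist1h2bq, Hist1h2ao and Hist1h2br, 1.49% for Hist1h4m, and 47.8% for the H3 genes Hist2h3c1 and Hist2h3c2. The 295 bases between the codons of Hist1h2bq and Hist1h2ao were identical at all 295 positions to those of Hist1h2ap and Hist1h2br. In the other kind, Hist1h1t, Hist1h2ba and Hist1h2aa, the upstream words were 100% unique. These are the testis-specific linker, H2B and H2A genes, and their nearest regions lay 2319, 2967 and 3273 bases from the start codons.

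Over all 67 genes, 57 had at least 50% unique upstream words, and 49 of those (86.0%) had a covered start. Of the 10 with less, 2 had a covered start (20%), Hist1h4n and Hist2h2aa1. Taking instead any region in the 300 bases before the codon, 53 of the 57 and 3 of the 10 had one. The 4 genes of the unique group without one were the 3 testis-specific genes and Hist1h1b. Multimapping reads had been removed before peak calling, and the part of this in the missing regions was not tested.

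**Figure D3:**
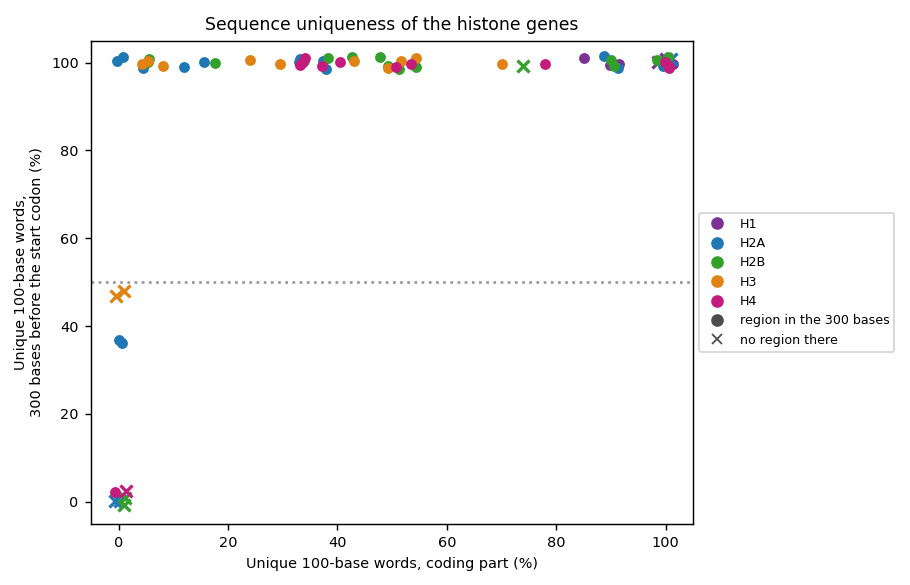
Percentage of unique 100-base words in the coding part (x axis) and in the 300 bases before the start codon (y axis) of each histone gene, coloured by class, with circles for genes with a region in those 300 bases and crosses for genes without (points are shifted slightly to part overlaps). The 10 genes below the dotted 50% line include 7 crosses, and the 57 above it include 4.

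Several linker histone genes had regions past their coding part. In Hist1h1b, Hist1h1c, Hist1h1d and Hist1h1e, which encode the somatic variants H1.5, H1.2, H1.3 and H1.4, a region began 61 to 280 bases after the coding part and ended 602 to 783 bases after it. These regions were 519, 512, 504 and 708 bases wide. Hist1h1c, Hist1h1d and Hist1h1e also had a region at the start codon, in each case narrower, at 312, 233 and 267 bases. In Hist1h1b the downstream region, 896 to 1414 bases past the codon, was the only region.

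The 708-base region downstream of Hist1h1e also covered the annotated 5′ end of the long Hist1h2be model, to which it was assigned. The next histone start codon was at least 3971 bases from the centre of each of these 4 regions. Hist1h1a and Hist1h1t had no such region. Counting only regions that begin within 1 kb after the coding part and cover no other annotated histone start or start codon, which leaves out that of Hist1h1e, 3 of the 6 H1 genes and 2 of the 61 genes of the other classes had one. That of Hist1h2af was the upstream region of Hist1h3g, 166 bases from its codon, and that of Hist2h4 was 162 bases wide and began 546 bases after the coding part. The downstream criterion was chosen after the positions had been seen. It leaves out regions over a neighbouring histone start, and many genes of the other classes lie close to such a neighbour. The same share was not counted over all protein-coding genes, so these counts do not show a trait particular to H1 genes.

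Along chromosome 13, the density of regions differed between stretches of histone genes. The Hist1 genes formed 4 stretches, separating wherever neighbouring genes lay over 100 kb apart. The stretch from Hist1h2bl to Hist1h2br (18 genes, 124 kb) held 9.70 regions per 100 kb and that from Hist1h4h to Hist1h1a (29 genes, 235 kb) held 13.2. The short stretch from Hist1h2ah to Hist1h2bj (5 genes, 10.5 kb) had 3 regions and a covered start at each of its 5 genes. Chromosome 13 as a whole held 2.21 regions per 100 kb. The Hist2 stretch (10 genes, 52.3 kb) held 21.05 per 100 kb, against 2.05 for chromosome 3. The stretches were drawn around closely spaced genes, whereas whole chromosomes include DNA with few genes, so these densities are not a like comparison. Other gene-dense stretches were not examined.

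The gaps were unlike each other. The 196 kb before Hist1h2ah contained 6.65 regions per 100 kb and 3 other protein-coding genes with covered starts. The gap before Hist1h4h, 1485 kb long, contained 1.35 per 100 kb and 40 other protein-coding genes, 3 of them with a covered start. The last, 167 kb, contained 1.19 per 100 kb, and beyond it Hist1h2ba and Hist1h2aa had no region in 3.08 kb.

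**Figure D4:**
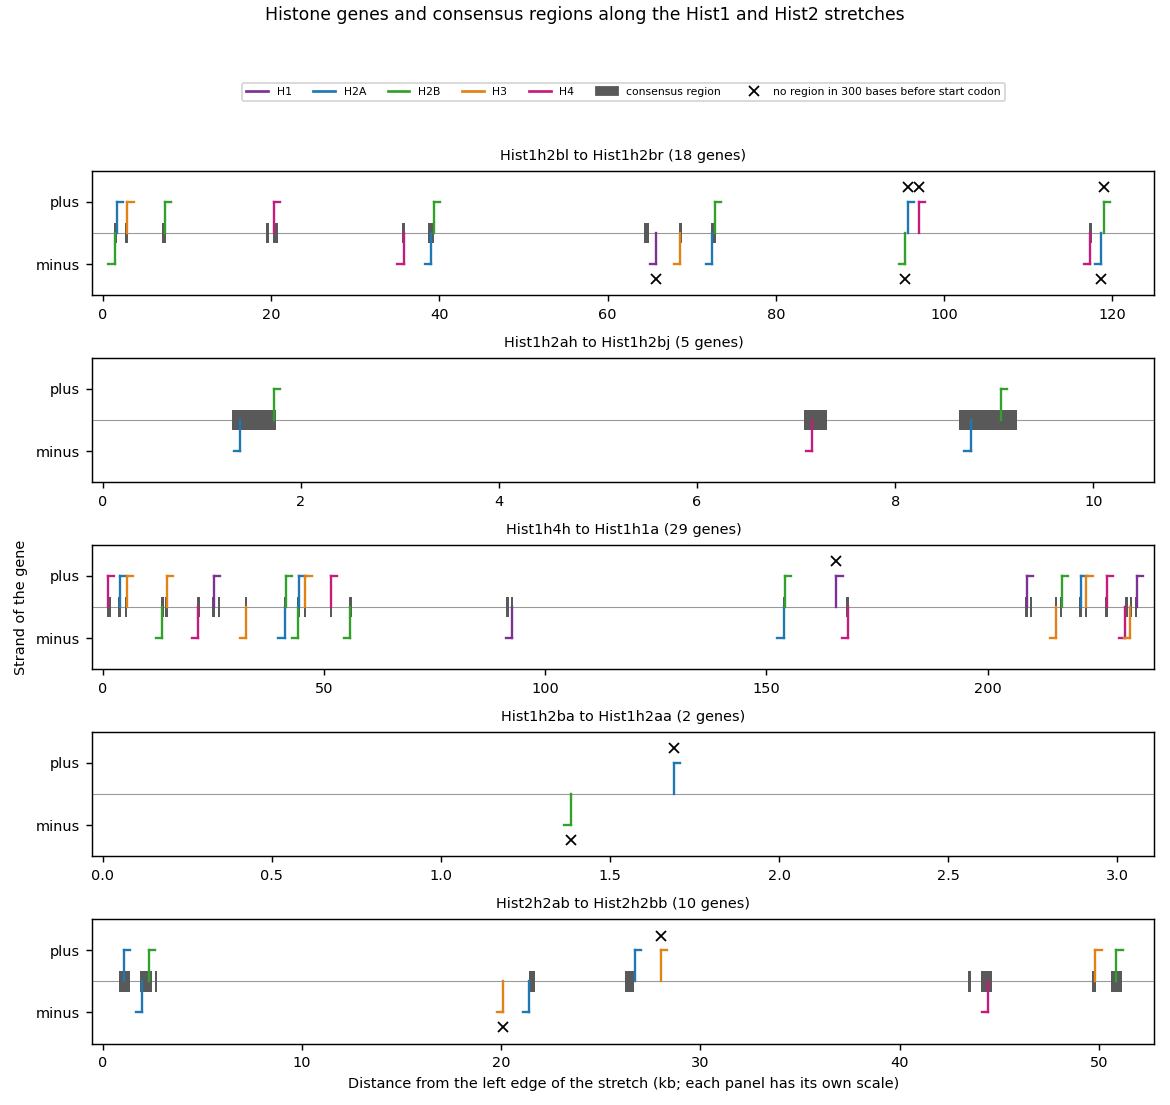
Maps of the 4 Hist1 stretches and the Hist2 stretch, with distance in kb on an axis scaled for each panel, start codons drawn as bent lines up (plus strand) or down (minus strand) in the colour of the class, and consensus regions as grey blocks. Crosses mark the 11 genes without a region in the 300 bases before the start codon, 5 of them in the last part of the first stretch and 2 forming the whole stretch from Hist1h2ba to Hist1h2aa.

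Promoter motifs varied by class. Over 250 bases before to 50 after the start and on both strands, TATAAA was found in 37 of the 67 genes (55.2%) and in 12.6% of all protein-coding promoters. In the 100 bases before the start alone, 23 histone genes had it. CCAAT was found in 56 (83.6%), against 39.0%. Every H2A and H2B gene had a CCAAT box, as did 11 of 12 H3 genes and 5 of 6 H1 genes, but only 4 of 13 H4 genes. In the 300 bases before the start codon, 12 of 12 H3 genes, 6 of 6 H1 genes and 4 of 13 H4 genes had one. TATAAA was found there in 8 of 12 H3 genes, against 4 in the window around the annotated start. The octamer ATTTGCAT was present in 15 genes (22.4%), against 1.57% of all promoters. These were 7 H2A and 8 H2B genes, and the other 31 histone genes had none. The count of 15 fell to 8 on the sense strand alone and to 6 in the 100 bases before the start. All 7 H2A genes held the octamer on the antisense strand, and the 8 sense matches were those of the H2B genes. In 5 head-to-head pairs, 1 octamer between the codons was counted for both the H2A and the H2B gene. AAACACA was found in 4 of 6 H1 genes and 5 of the 61 others, against 6.40% of all promoters. In the 300 bases before the start codon, 11 of the 67 genes had it, 5 of them H1. Shares over all promoters were counted only in the window around the annotated start and on both strands. The counts in other windows or on 1 strand therefore have no such share beside them. The sites did not overlap one another in the printed sequences.

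Between the codons of the 12 H2A–H2B pairs there were 2 to 5 CCAAT boxes, and 8 pairs had a TATA box and 5 the octamer. Of the 5 pairs with an octamer, 4 had a region over both starts, and the fifth was the testis pair. Among all 12 pairs 9 had such a region, a similar share. Counted on the sense strand in the 300 bases before the codon, the nearest TATAAA began a median of 73 bases before it (quartiles 64 and 87, 35 genes) and the nearest CCAAT a median of 108 bases before it (56 genes), both inside the median upstream reach of the regions. Starts were covered in 31 of the 37 genes with TATAAA and 20 of the 30 without. The corresponding counts were 43 of 56 with CCAAT and 8 of 11 without, and 13 of 15 with the octamer and 38 of 52 without. These splits were not separated by sequence uniqueness. The 10 genes with under 50% unique upstream words, 2 of them with a covered start, all lacked the octamer. Of those 10, 4 had TATAAA and 8 had CCAAT.

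**Figure D5:**
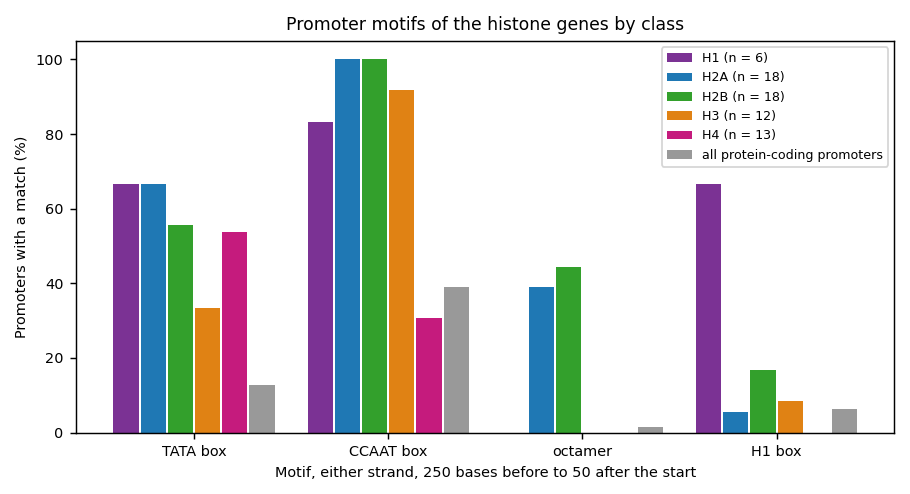
Percentage of promoters with each motif on either strand, from 250 bases before to 50 after the annotated start, for each histone class (coloured bars) and for all protein-coding genes (grey). The CCAAT bars reach 100% for H2A and H2B, the octamer has bars only for those classes among histones, and the H1 box bar is highest for H1.

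At the other end of the gene, the stem-loop of replication-dependent histone mRNA was found in 63 of the 67 genes (94.0%). It was searched as fully paired arms of 6 bases, the first beginning with GG, around a loop of 4 beginning with TTT, within 300 bases after the coding part, and began a median of 34 bases after it (25 to 62). For comparison, 0.0228% of the promoter windows of all protein-coding genes, of the same length, held such a run. The sequence after the coding part of other genes was not searched. The most common form was found in 41 genes, and the form most common among H4 genes in 8, all H4. They are printed with the paired arms in capitals.
Most common form: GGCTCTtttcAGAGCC
Most common H4 form: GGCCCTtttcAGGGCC

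No such run was found after Hist1h2an, Hist1h3g, Hist1h4a and Hist2h2be. In all 4 of the H1 genes with a downstream region, the stem-loop lay before that region, 28 to 44 bases after the coding part. The testis-specific genes Hist1h1t, Hist1h2ba and Hist1h2aa each had a stem-loop.

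Genes outside the clusters that supply or control histones were also examined, against the 56.4% of all protein-coding genes with a covered start. All 11 genes for histone variants, among them H3f3a and H2afz, had a region over a start (median width 752 bases), and 6 of them over the start codon. A region over a start was also found at all 19 factors of histone gene expression, among them Npat, Slbp and Casp8ap2 (median 712 bases), 10 of which had the start codon covered. Starts were covered at 6 of 6 mTEC markers, Epcam, Krt5, Krt14, Aire, Cd80 and H2-Ab1, and at 0 of 4 thymocyte markers, Cd3e, Cd4, Cd8a and Rag1.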

How the data were processed

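Sorted mTECs of 4 groups (2 samples each) had been profiled by ATAC-seq. The authors aligned reads to mm10 with Bowtie2, removed mitochondrial, multimapping, low-quality and duplicate reads, called broad peaks with MACS2 and merged them with bedtools. Per the file headers, featureCounts 2.0.3 then counted reads in the merged set. The sources used here do not give whether calling was per sample or pooled. The deposited start, end and width of each region, in bases, were used as they stand. Region starts may be 1 base low: the smallest difference between a start and the preceding end was 1 (19 cases).

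The 8 deposited columns of per-sample counts match no sample label and were not used in any step, so library depth is not analysed here and no test was run. Merging means that a region may come from any sample.

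Regions overlapping a histone gene body or 1 kb either side were assigned to the nearest start of a GENCODE M21 basic transcript. Motifs, stem-loops and unique words of 31 or 100 bases were read from GRCm38. Steps used Python 3.11.15, pandas 2.3.3, numpy 2.4.6 and scipy 1.17.1 and were tested on simulated data. Named genes were the widest, narrowest and uncovered members of each class, all Hist3 and Hist4 genes and pairs sharing wide regions. Others, such as genes with downstream regions, were named after their values were seen. The members and lists were chosen with earlier results of these data known. Alternatives changed the window, assignment, region filters, start definition and motif window.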

Additional observations from a re-analysis of the deposited data

How the results depend on the processing

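Of 35 values recomputed under alternatives, 32 stayed within the limit set for them, which was 1.5-fold for counts and the interval of 266 to 481 bases for the median width. With regions under 200 bases left out, the median width rose from 379 to 481 bases, exactly the upper bound. A median rises by construction when narrow regions are dropped. That filter left 36 genes with a region of their own in place of 48, and 39 regions in place of 54. With only the 100 bases before the start searched, genes with TATAAA numbered 23 in place of 37 and genes with the octamer 6 in place of 15. With the sense strand only, genes with the octamer numbered 8. Shorter windows and single strands hold fewer letters to match by construction. The count of genes with a covered start ranged from 41, when regions under 200 bases were left out, to 54, when regions within 100 bases of the start were accepted, against 51. Alternatives based on the start codon, on region starts moved by 1 base and on any overlapping region were chosen after seeing the data, and the start codon gave 50 and moved starts 51.

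No paired analysis was possible because the counts per sample carry no sample label and no result comes from a test. Depth is not analysed here, so a missing region describes the peak calls alone, and region widths include the merging of peaks over the study.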
